A study of Mus musculus with 5 samples.

Results

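The genes described here are 10 that mark hepatic progenitors on the cell surface or belong to the oncofetal group, which is active in fetal liver, silent in adult liver and active again in many liver tumours. They are the surface genes Epcam, Prom1, Cd24a and Alcam, the secreted phosphoprotein gene Spp1, the glypican gene Gpc3, the RNA-binding protein genes Igf2bp1, Igf2bp2 and Igf2bp3, and the chromatin gene Hmga2. They were taken by name from an Agilent whole-genome array of mouse, on which Epcam is listed under its older symbol Tacstd1. Of 41174 probes on the array 17 belong to them. All 10 genes entered the test of 19303 genes, and 8 of the 10 were well above background on all 5 arrays. The other 2, Prom1 and Gpc3, entered it because they were bright in at least 1 group.

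In fetal liver, bipotent hepatoblasts give rise to hepatocytes and bile duct cells, and several surface proteins that antibodies can reach are used to sort them. EpCAM, CD133 (from Prom1), CD24 and ALCAM are such proteins, and osteopontin (from Spp1) is secreted by duct and progenitor cells. Glypican-3, the IGF2BP proteins and HMGA2 are classical oncofetal proteins. In fetal cells LIN28 holds the let-7 microRNAs low, and transcripts of Hmga2 and of the Igf2bp genes are among the known let-7 targets. Several of these genes are also used outside the liver, Prom1, Cd24a and Alcam in neural progenitors among other cells.

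The cell lines fell into 3 groups. The induced hepatic progenitor cells (iHPC) were made from a neural progenitor line by pMXs retroviruses that carry transcription factors, 9 in iHPC 9F (replicate 1) and 10 in iHPC 10F (replicate 2). The hepatic progenitor cells (HPC) are lines grown from fetal liver at E13.5: HB1 (replicate 1) from C57BL6J mice and HNG2 (replicate 2) from STOCK Tg(Nanog-GFP, Puro)1 Yam mice. The neural progenitor cells (NPC) are the single array of NSBAg2, the parental line of the iHPC, which came from the embryonic stem cell line BAg73C2. Both the iHPC and the NPC thus carry beta-geo in Afp. Only the iHPC were exposed to G418, from 3 weeks after infection for 1 week, so the iHPC were selected for transcription of Afp, the alpha-fetoprotein gene of fetal liver, and not for any of the 10 genes. Each HPC array is a line of its own strain and each iHPC array has its own set of factors, and no label says that arrays of a group are repeat cultures. The p-values below set a group difference against a spread between arrays. That spread comes only from how far HB1 lay from HNG2 and iHPC 9F from 10F (n = 2 iHPC, 2 HPC and 1 NPC array).

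The start regions of Epcam, Spp1 and Gpc3, genes on which the comparisons below turn, are shown from RefSeq (GRCm38.p6), each with 250 bases before the annotated start and 50 after it, 5′ to 3′ on the strand of the gene. The regions are chr17:87635729-87636028 on the plus strand for Epcam, chr5:104434861-104435160 on the plus strand for Spp1 (the first of its 2 listed starts) and chrX:52613925-52614224 on the minus strand for Gpc3. Capitals mark the motifs searched on both strands, which were the GC box (GGGCGG), the CCAAT box (CCAAT), the TATA box (TATAAA), the E-box (CACGTG) and the AP-1 motif (TGANTCA); the 5 motifs did not overlap in these regions.
Epcam: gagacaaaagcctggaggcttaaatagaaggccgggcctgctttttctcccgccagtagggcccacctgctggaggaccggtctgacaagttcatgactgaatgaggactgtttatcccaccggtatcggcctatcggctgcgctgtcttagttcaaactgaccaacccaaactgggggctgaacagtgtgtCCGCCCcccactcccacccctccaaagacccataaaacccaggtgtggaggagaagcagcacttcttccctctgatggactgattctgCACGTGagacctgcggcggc
Spp1: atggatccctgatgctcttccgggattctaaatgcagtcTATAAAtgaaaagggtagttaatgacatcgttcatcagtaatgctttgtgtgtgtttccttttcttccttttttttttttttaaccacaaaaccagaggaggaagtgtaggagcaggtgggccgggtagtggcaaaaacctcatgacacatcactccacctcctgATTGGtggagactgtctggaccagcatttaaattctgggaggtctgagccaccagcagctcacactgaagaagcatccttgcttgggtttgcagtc
Gpc3: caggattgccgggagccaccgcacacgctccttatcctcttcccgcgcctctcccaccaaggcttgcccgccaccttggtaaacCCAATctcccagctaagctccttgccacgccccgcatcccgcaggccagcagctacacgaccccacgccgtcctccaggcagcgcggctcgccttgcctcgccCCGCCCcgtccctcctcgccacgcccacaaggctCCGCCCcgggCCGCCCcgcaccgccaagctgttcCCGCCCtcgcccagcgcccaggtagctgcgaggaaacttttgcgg
The Gpc3 region is the richest of the 3 in CpG, with a GC content of 70.7% and 0.919 times the CpG count that its base composition would give by chance. The Epcam region has 57% GC and a CpG ratio of 0.454, and the Spp1 region 45.3% GC and a ratio of 0.195, beside medians of 52.7% and 0.384 over the 32851 promoters of the table. Gpc3 holds 4 GC boxes and 1 CCAAT box, Epcam 1 GC box and 1 E-box, and Spp1 1 CCAAT box and 1 TATA box. The TATA box letters of Spp1 begin at offset -211 from the annotated start. The E-box of Epcam (offset 30) and 1 of the 4 GC boxes of Gpc3 (offset 5) lie after it. A GC box is found in 35.7% of all those promoters, a CCAAT box in 37.4%, a TATA box in 13.6%, an E-box in 7.15% and an AP-1 motif in 7.81%. A match is only a run of letters, and binding was not measured. RefSeq start regions were matched for 8 of the 10 genes.

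Every level below is the log2 of a signal minus that of the 75th percentile of its array, and a gene is called where limma's p, adjusted over all 19303 genes, is under 0.05. From 58.9% to 65.6% of an array's non-control spots were clearly above background and no spot was saturated. The number of arrays limits the precision. All 7 hepatoblast markers (Alb, Afp, Ttr, Apoa1, Hnf4a, Krt8 and Krt18) were well above background on both iHPC and both HPC arrays, and 1 of the 7, Krt18, was on the NPC array. The iHPC had been selected for transcription of Afp, so Afp is not an independent marker there. Of 5 tested neural markers, 4 were well above background in each iHPC array (not Fabp7), 3 in HPC replicate 1 (not Sox2 or Fabp7), 4 in HPC replicate 2 (not Sox2) and all 5 in NPC, with summed levels of 2.72 and 2.92 in iHPC 9F and 10F, 0.40 and 1.57 in HPC replicates 1 and 2, and 2.23 in NPC. All 6 tested mesenchymal markers were well above background in NPC, with a summed level of 1.17 in iHPC 9F, 1.26 in iHPC 10F, -2.76 in HPC replicate 1, 1.13 in HPC replicate 2 and 7.55 in NPC; Col1a1 was not well above background in either iHPC array, and 4 of the 6 were not in HPC replicate 1. HPC replicate 1 was scanned on a first day, HPC replicate 2 on a second, and the iHPC and NPC arrays on the third. Scan day and cell type therefore cannot be told apart in any comparison with HPC. Within the HPC pair, line, strain, scan day and slide cannot be told apart.

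**Figure D1:**
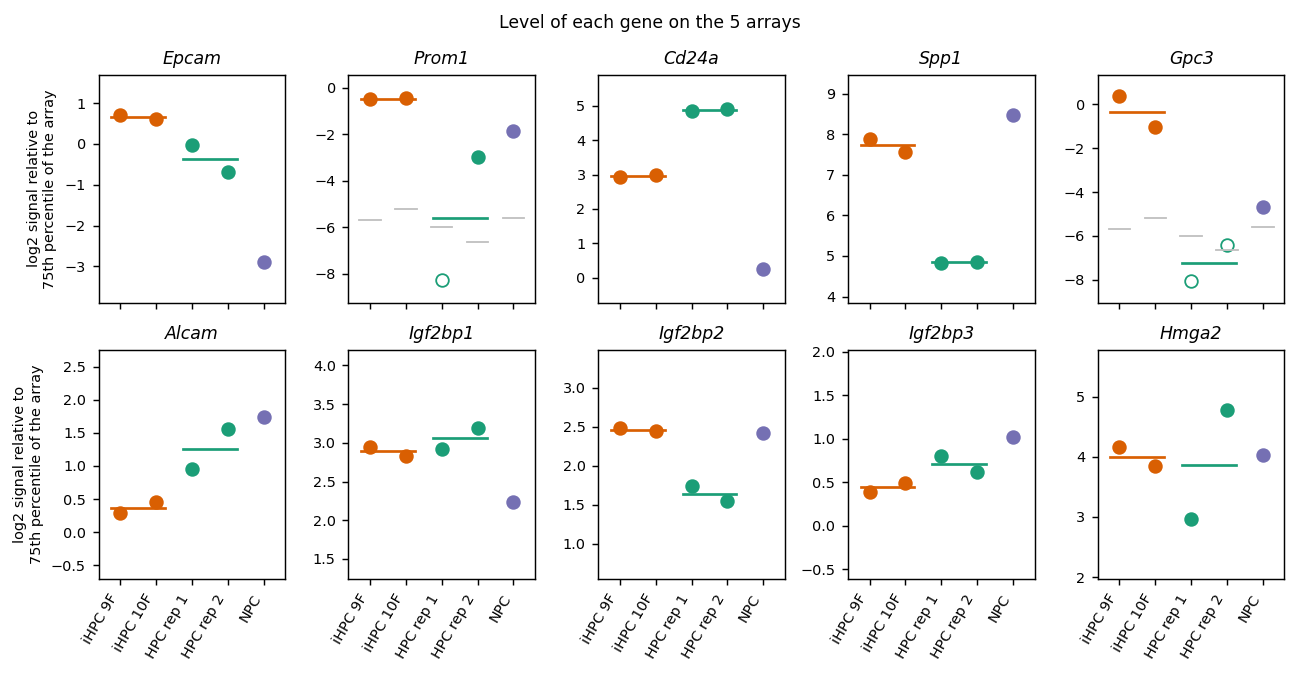
Level of each of the 10 genes on the 5 arrays, as log2 signal relative to the 75th percentile of the array; points are arrays, coloured bars are means of 2 arrays, hollow points were not well above background, and grey bars, where in range, are the lowest level well above background on that array. The y axes differ between genes: Epcam is lowest in NPC at -2.90, Cd24a highest in HPC at 4.85 and 4.91, Spp1 lowest in HPC at 4.83 and 4.86, and Gpc3 hollow in both HPC arrays.

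The first comparison sets the induced cells against their parental neural line. In iHPC against NPC, 2 of the 10 genes were called higher, Epcam and Cd24a, and none lower, where limma called 5.64% of all genes, 2.79% higher and 2.85% lower. At an unadjusted p under 0.05 there were 4 of the 10, the other 2 being Gpc3 and Alcam. Of all 19303 genes 4713 had an unadjusted p that low. The median difference of the 10 genes was 0.34, beside 0.026 over all genes. In iHPC against HPC, which asks how the induced cells differ from progenitors of fetal liver, Spp1 and Gpc3 were called higher and Cd24a lower, where 5.42% of all genes were called, 3.54% higher and 1.88% lower. The median of the 10 was 0.48, beside 0.052. In HPC against NPC, Epcam and Cd24a were called higher and Spp1 lower, where 15.7% of all genes were called, 6.68% higher and 8.98% lower, with medians of -0.40 for the 10 genes and -0.026 for all. The comparisons with NPC share the single NPC array. These calls rest on the closeness of the 2 iHPC arrays. With either of them left out, the HPC pair alone set the spread and every call was lost, of the 10 genes as of all other genes.

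**Figure D2:**
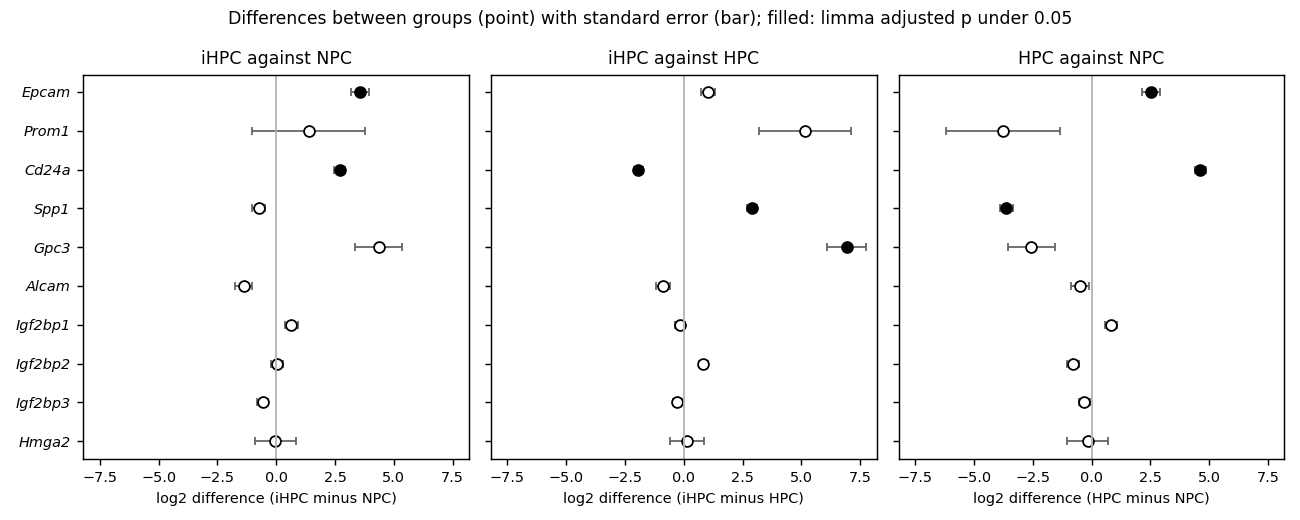
Difference in log2 level for each gene in the 3 comparisons; points are the limma estimates, bars their standard errors, and filled points have an adjusted p under 0.05. Filled points are Epcam and Cd24a in iHPC against NPC, Cd24a, Spp1 and Gpc3 in iHPC against HPC, and Epcam, Cd24a and Spp1 in HPC against NPC; in the comparisons with HPC, Gpc3 has both HPC values and Prom1 has 1 HPC value not well above background.

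Epcam encodes an adhesion protein of epithelia that sits on hepatoblasts and bile duct cells and is cut by ADAM17 and presenilin to release a fragment that acts with beta-catenin, FHL2 and LEF1 in the nucleus. Its level was 0.70 in iHPC 9F and 0.61 in iHPC 10F, -0.032 and -0.70 in HPC replicates 1 and 2, and -2.90 in NPC. Both hepatic groups lay above NPC on every array, and the iHPC lay above the HPC without overlap. Epcam was 11.8-fold higher in iHPC than in NPC (log2 difference 3.56, SE 0.38, limma adjusted p = 0.0343) and 5.81-fold higher in HPC than in NPC (2.54, SE 0.38, adjusted p = 0.0338). Between iHPC and HPC the difference of 1.02 (95% interval 0.13 to 1.91) did not pass, with an adjusted p of 0.151. It was 1.35 without HPC replicate 1 and 0.69 without HPC replicate 2. As in all bulk samples, a change in the number of cells that carry the transcript and a change in its amount per cell cannot be told apart. On the slide that iHPC 10F and NPC shared the difference was 3.51. Without iHPC 9F the adjusted p against NPC was 0.263 and without iHPC 10F 0.257, and in HPC against NPC it was 0.152 with either left out. With all dim probes kept the values were 0.0579 for iHPC against NPC and 0.0590 for HPC against NPC, and normexp background correction gave smaller differences, 2.86 and 1.90 (0.0221 and 0.0253).

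Cd24a encodes the small mucin-like glycoprotein CD24, found on immature cells of many tissues. It read 2.92 and 2.98 in iHPC 9F and 10F, 4.85 and 4.91 in HPC replicates 1 and 2, and 0.25 in NPC. The 3 groups did not overlap, the iHPC stood between the other 2, and the arrays within each pair differed by 0.053 (iHPC) and 0.065 (HPC). Cd24a was 6.50-fold higher in iHPC than in NPC (2.70, SE 0.23, limma adjusted p = 0.0300) and 24.8-fold higher in HPC than in NPC (4.63, SE 0.23, adjusted p = 0.0104). It was lower in iHPC than in HPC by 3.82-fold (-1.93, SE 0.19, adjusted p = 0.0309). It was the only 1 of the 10 genes called in all 3 comparisons. Leaving out iHPC 9F raised the adjusted p to 0.281 against NPC and 0.385 against HPC, and leaving out iHPC 10F to 0.276 and 0.372, while in HPC against NPC it was 0.0711 with either left out. With all dim probes kept it was 0.0549 for iHPC against NPC and 0.0643 for iHPC against HPC.

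Prom1 encodes prominin-1 (CD133), a pentaspan protein of membrane protrusions used to sort stem cells of liver and brain. On the brighter of its 2 probes it read -0.50 and -0.43 in iHPC 9F and 10F, -8.26 and -2.96 in HPC replicates 1 and 2, and -1.85 in NPC, with HPC replicate 1 not well above background. The second probe gave -1.51 and -1.48 in iHPC, -5.97 (also not well above background) and -4.33 in HPC, and -2.87 in NPC. Both probes put the iHPC arrays highest, NPC next and HPC replicate 1 lowest. The 2 HPC arrays were far apart: HPC replicate 2 stood at least 8.18-fold above replicate 1 on the first probe and at least 3.11-fold on the second. The difference between iHPC and NPC was 1.38 (95% interval -5.58 to 8.35, limma adjusted p = 0.791), and that between iHPC and HPC 5.15 (-0.54 to 10.83, adjusted p = 0.207). HPC against NPC gave -3.77 (-10.73 to 3.20, adjusted p = 0.335). The wide intervals carry the spread of the HPC pair, also in iHPC against NPC, where no HPC array is compared. Fitted on the iHPC and NPC arrays alone, that difference was again 1.38, with an SE of 0.14 in place of 2.41. In iHPC against HPC the difference was 2.50 without replicate 1. Without replicate 2, where the remaining HPC array was dim, Prom1 was at least 46.2-fold higher in iHPC. In HPC against NPC the difference was -1.12 without replicate 1, and Prom1 was at least 17.7-fold lower in HPC without replicate 2. Background correction by normexp with an offset of 50 signal units gave 2.91 for iHPC against HPC (adjusted p = 0.0592) and -1.78 for HPC against NPC (0.154).

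Alcam encodes CD166, an adhesion molecule of the immunoglobulin superfamily that binds itself and CD6. Its level was 0.29 and 0.45 in iHPC 9F and 10F, 0.95 and 1.56 in HPC replicates 1 and 2, and 1.74 in NPC. The groups did not overlap and the iHPC arrays were the lowest. The difference was -1.37 for iHPC against NPC (95% interval -2.42 to -0.33, limma adjusted p = 0.139) and -0.88 for iHPC against HPC (-1.74 to -0.030, adjusted p = 0.172). HPC against NPC gave -0.49 (-1.53 to 0.55, adjusted p = 0.394). None was called with all arrays. Without HPC replicate 1 the difference was -1.19 in iHPC against HPC and -0.19 in HPC against NPC. Without HPC replicate 2 these were -0.58 and -0.79.

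Spp1 encodes osteopontin, a secreted phosphoprotein that binds integrins and CD44 and is made by duct cells, bone cells, macrophages and injured tissue. Averaged over at least 8 spots per array, it read 7.89 and 7.57 in iHPC 9F and 10F, 4.83 and 4.86 in HPC replicates 1 and 2, and 8.47 in NPC. The iHPC and NPC arrays were all high and the HPC pair was low, without overlap. Spp1 was 7.39-fold higher in iHPC than in HPC (2.89, SE 0.22, limma adjusted p = 0.0235) and lower in HPC than in NPC by 12.4-fold (-3.63, SE 0.27, adjusted p = 0.0133). Between iHPC and NPC the difference of -0.74 (95% interval -1.52 to 0.034) did not pass, with an adjusted p of 0.216. The summed level of the mesenchymal markers was also highest in NPC, as given above. Of the 5 tested leukocyte markers, Ptprc was well above background in iHPC alone, at -3.29 and -2.84, and Aif1 in NPC alone. Csf1r was well above background on every iHPC and HPC array but not in NPC. In all, 4 of the 5 were well above background in each iHPC array and 3 in each HPC array and in NPC. Their summed levels were 2.55 and 2.65 in iHPC, 1.32 and 2.76 in HPC, and 0.59 in NPC. The part of these markers in the Spp1 result was not tested. Without iHPC 9F the adjusted p was 0.281 against HPC and without iHPC 10F 0.260, and in HPC against NPC it was 0.0814 with either left out.

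Gpc3 encodes glypican-3, a heparan sulphate proteoglycan tied to the membrane by a lipid anchor, which binds growth factors and is a clinical marker of hepatocellular carcinoma. Its level was 0.36 in iHPC 9F and -1.02 in iHPC 10F, -8.07 and -6.42 in HPC replicates 1 and 2, and -4.69 in NPC. Neither HPC array was well above background, NPC was just above the lowest such level of its array (-5.59), and both iHPC arrays stood above NPC. Gpc3 was at least 58.9-fold higher in iHPC than in HPC (measured means -0.33 and -7.25, limma adjusted p = 0.0390). This and other folds written with "at least" set the bright mean against a floor for each dim array, which is the lowest level clearly above background there or the probe's own level, whichever is higher. Against NPC the iHPC mean was 20.6-fold higher (4.36, SE 1.00), which did not pass (95% interval 1.49 to 7.24, adjusted p = 0.110). HPC read at least 2.86-fold lower than NPC, which did not pass. The 95% interval of the measured log2 difference, -5.43 to 0.32, included 0 (limma adjusted p = 0.166). This bound was 3.32-fold without HPC replicate 1 and 2.46-fold without HPC replicate 2. The call against HPC was lost without iHPC 9F (at least 36.5-fold, adjusted p = 0.239), without iHPC 10F (at least 94.9-fold, 0.207) and with all dim probes kept (0.0559). The sizes depend on the background correction. With normexp and an offset of 50 signal units the log2 difference was 3.68 in iHPC against HPC (limma adjusted p = 0.0272). It was 2.63 in iHPC against NPC (0.0808) and -1.05 in HPC against NPC (0.238). The values 3.68 and -1.05 are smaller in size than the bounds from all arrays above, which are 5.88 and 1.52 on the log2 scale.

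The 3 Igf2bp genes encode proteins with RRM and KH domains that bind and stabilise messenger RNAs such as those of Igf2 and Myc. Igf2bp1 read 2.95 and 2.83 in iHPC 9F and 10F, 2.92 and 3.19 in HPC replicates 1 and 2, and 2.24 in NPC on its brightest probe. Igf2bp2 read 2.48 and 2.44 in iHPC, 1.73 and 1.54 in HPC, and 2.42 in NPC. Igf2bp3 read 0.38 and 0.49 in iHPC, 0.81 and 0.62 in HPC, and 1.02 in NPC. All 3 were well above background on every array and none was called in any comparison; at an unadjusted p under 0.05 stood Igf2bp2 in iHPC against HPC, and Igf2bp1 and Igf2bp2 in HPC against NPC.

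On these probes the value of Igf2bp1 was lowest and that of Igf2bp3 highest in NPC, and that of Igf2bp2 was lowest in HPC. Igf2bp1 differed by 0.65 in iHPC against NPC (95% interval -0.11 to 1.41, limma adjusted p = 0.251), by -0.17 against HPC (-0.79 to 0.45, adjusted p = 0.651) and by 0.82 in HPC against NPC (0.059 to 1.57, adjusted p = 0.121). Its 2 further probes gave 0.78 and -0.14 in iHPC against NPC, so the probes disagreed in direction there. In iHPC against HPC they gave -0.64 and -0.62, and in HPC against NPC 1.42 and 0.47. These had the direction of the brightest probe, and none was called. Igf2bp2 was higher by 0.82 in iHPC than in HPC (0.25 to 1.39, adjusted p = 0.109), by 0.039 than in NPC (-0.66 to 0.73, adjusted p = 0.948), and differed by -0.78 in HPC against NPC (-1.48 to -0.088, adjusted p = 0.113). Igf2bp3 gave -0.58 in iHPC against NPC (-1.29 to 0.13, adjusted p = 0.267) and -0.27 against HPC (-0.85 to 0.30, adjusted p = 0.443). In HPC against NPC it gave -0.31 (-1.01 to 0.40, adjusted p = 0.429). Centring each array on its median turned this last value to 0.0069, and quantile normalization turned that of Igf2bp2 in iHPC against NPC to -0.013. Without HPC replicate 1 Igf2bp2 differed by 0.91 in iHPC against HPC and by -0.88 in HPC against NPC. Without replicate 2 it differed by 0.73 and -0.69. Igf2bp1 differed in HPC against NPC by 0.95 without replicate 1 and by 0.68 without replicate 2.

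Hmga2 encodes an AT-hook protein of chromatin in fetal and tumour cells. Its brightest probe read 4.16 and 3.84 in iHPC 9F and 10F, 2.97 and 4.77 in HPC replicates 1 and 2, and 4.03 in NPC. The HPC pair spanned the values of all other arrays, so the groups overlapped. The differences were -0.034 for iHPC against NPC (95% interval -2.51 to 2.45, limma adjusted p = 0.989), 0.13 for iHPC against HPC (-1.89 to 2.16, adjusted p = 0.920) and -0.17 for HPC against NPC (-2.65 to 2.31, adjusted p = 0.907). Median centring turned the 3 to 0.031, -0.11 and 0.15. HPC replicate 2 was above HPC replicate 1 on all 3 probes, at 4.77 and 2.97, at 1.59 and -0.65, and at 0.38 and -0.79. Without HPC replicate 1 the differences of HPC changed sign (-0.77 for iHPC against HPC and 0.73 for HPC against NPC). Without replicate 2 they were 1.03 and -1.07. The order of HPC and the other groups therefore rests on which HPC array is used, and these arrays differ in line, strain, scan day and slide.

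**Figure D3:**
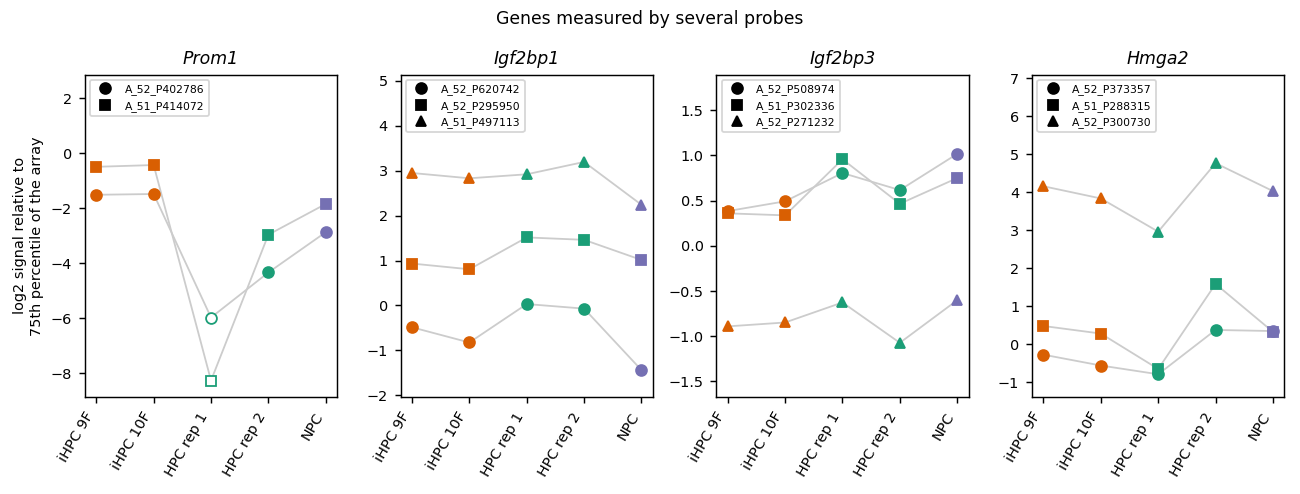
Level of each probe of the 4 genes with several probes on the 5 arrays, as log2 signal relative to the 75th percentile of the array; lines join values of 1 probe and hollow points were not well above background. Probes of a gene differ in level, so only the shape compares: both Prom1 probes are lowest in HPC replicate 1, and all 3 Hmga2 probes are higher in HPC replicate 2 than in HPC replicate 1.

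Within the pairs there was no test, since each side is 1 array. iHPC 10F and 9F were close for 9 of the 10 genes, with absolute differences from 0.035 (Igf2bp2) to 0.33 (Spp1), where the median over all genes was 0.15. Gpc3 was the exception, 2.60-fold lower in iHPC 10F than in 9F (-1.38), and 2.02% of all genes were at least that far apart. In the HPC pair the median over all genes was 0.53. Prom1, dim in replicate 1, was at least 8.18-fold lower there than in replicate 2. Hmga2 was 3.49-fold lower in replicate 1 than in replicate 2 (-1.80), and 10.5% of all genes were at least that far apart. Cd24a (-0.065) and Spp1 (-0.023) were nearly equal in both lines.

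**Figure D4:**
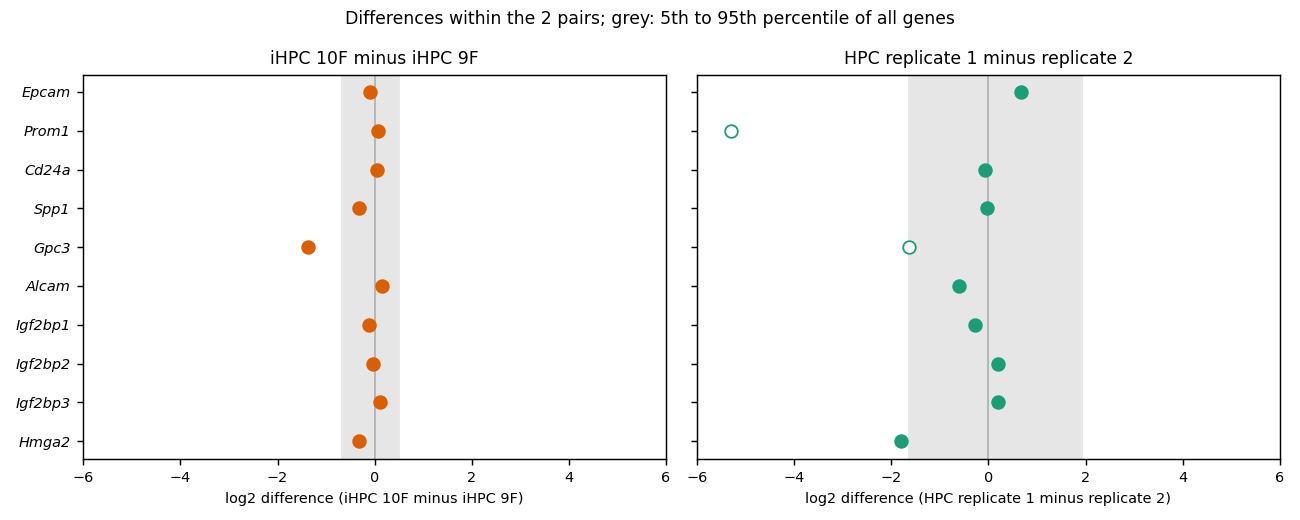
Difference in log2 level between the 2 arrays of each pair, for each gene; the grey band runs from the 5th to the 95th percentile of 19303 genes (-0.68 to 0.51 for iHPC 10F minus 9F, -1.63 to 1.93 for HPC replicate 1 minus replicate 2) and hollow points have at least 1 array not well above background. Gpc3 lies outside the band in the iHPC pair, and Prom1, Hmga2 and Gpc3 beyond its lower edge in the HPC pair, where the hollow points of Prom1 and Gpc3 show measured values that are not exact differences.

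Other surface and duct genes used for hepatic progenitors gave context for Epcam and Prom1. Of 19 tested, 3 were called higher in iHPC than in NPC (Krt19, Krt7 and Cdh1) and the same 3 were called higher in HPC than in NPC, with 6 and 9 at an unadjusted p under 0.05 and none called lower. Over all genes 2.79% and 6.68% were called higher and 5.64% and 15.7% called in either direction, so in HPC against NPC the share of the list called was near that of all genes. An unadjusted p under 0.05 was found for 4713 and 7028 of all 19303 genes. Krt19 and Krt7 encode keratins of duct cells and Cdh1 encodes E-cadherin, the adhesion protein of epithelia. Krt19 was at least 3198-fold and Krt7 at least 1135-fold higher in iHPC than in NPC, and Cdh1 57.7-fold (5.85, SE 0.65, limma adjusted p = 0.0364). In iHPC against HPC 1 of the 19 was called, Krt7, lower by 8.03-fold (-3.01, SE 0.34, adjusted p = 0.0374). The median difference of the list was -0.44 in iHPC against NPC, -0.27 in iHPC against HPC and -0.38 in HPC against NPC, beside 0.026, 0.052 and -0.026 over all genes.

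Genes that act with EpCAM changed in both directions. Of 7 tested, Tspan8, a tetraspanin found in complexes with EpCAM, was called 206.6-fold higher in iHPC than in NPC (7.69, SE 0.26, limma adjusted p = 0.0260). Lef1, a DNA-binding partner of beta-catenin, was called lower in iHPC than in NPC (-5.43, SE 0.57, adjusted p = 0.0340). In HPC against NPC, Tspan8 (9.53), Fhl2 (4.25) and Psen2 (1.70), the last encoding a presenilin, were called higher, and Lef1 was at least 110.7-fold lower. Tspan8 (-1.84) and Fhl2 (-2.98) were called lower in iHPC than in HPC. The medians of the 7 were 0.42 in iHPC against NPC, -0.65 in iHPC against HPC and 1.70 in HPC against NPC. Over all genes the medians were 0.026, 0.052 and -0.026, and 5.64%, 5.42% and 15.7% were called in either direction.

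Of 20 tested genes of the fetal growth programme and other let-7 targets, 1 was called in iHPC against NPC, 1 in iHPC against HPC and 4 in HPC against NPC, shares near the 5.64%, 5.42% and 15.7% called over all genes. Plag1, a zinc finger activator of Igf2, was at least 7.72-fold lower in iHPC than in NPC (limma adjusted p = 0.0296) and at least 14.2-fold lower in HPC than in NPC (0.0126). Peg10, a retrotransposon-derived imprinted gene, was at least 4.34-fold higher in iHPC than in HPC (0.0252) and at least 14.3-fold lower in HPC than in NPC (0.0131). Cdc25a, a phosphatase that drives the cell cycle (1.79, adjusted p = 0.0268), and Dicer1, the nuclease that matures microRNAs (1.75, adjusted p = 0.0409), were called higher in HPC than in NPC. The medians of the 20 were 0.43 in iHPC against NPC, -0.050 in iHPC against HPC and 0.45 in HPC against NPC. Those of all genes were 0.026, 0.052 and -0.026. The let-7 microRNAs themselves were not analysed here.

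**Figure D5:**
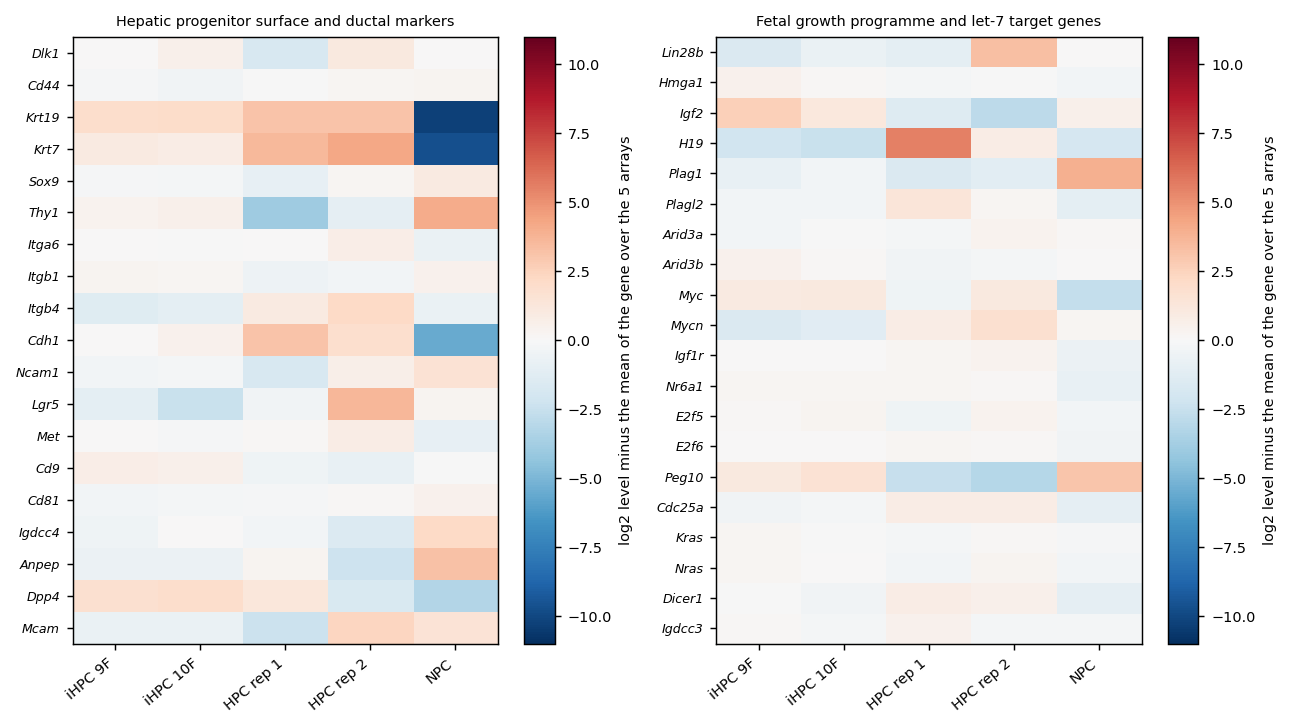
Level of each tested gene of 2 lists on the 5 arrays, as log2 level minus the mean of that gene over the 5 arrays, in colour; red is above and blue below that mean, and values not well above background are drawn as measured. Krt19, Krt7 and Cdh1 are blue in NPC alone, and Plag1 is red in NPC.

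Genes with patterns closest to each member were sought by the root mean square difference of mean-centred levels over the 5 arrays, among 6581 genes that ranged over at least 2 log2 units. Near to Epcam were Gatm (0.10) and 1700123K08Rik (0.19), and to Cd24a Dmrt2 (0.17), Scel (0.19) and Foxf2 (0.20). Closest to Spp1 were Dkkl1 (0.14) and Dhx58 (0.16), besides a transcript with no symbol here, and to Gpc3 Cldn10 (0.44), Ly6a (0.45) and Oas3 (0.50). Prom1 was nearest to Cers4 (0.43), to a probe under its older symbol Lass4 (0.52) and to Gbp3 (0.62). With 5 arrays in 3 groups many genes share a shape, and these are descriptions.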

How the data were processed

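Total RNA of 5 mouse cell lines, 0.25 µg each per the labels' protocols, was labelled with Cy3 and hybridised to one-colour Agilent arrays. The deposited files hold spot intensities from which, per the file headers, Agilent's Feature Extraction 10.7.3.1 had taken the background and spatial trends. No normalization between arrays is recorded. The deposited series matrix held the same values on 100% of spots.

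Here each processed intensity was divided by its array's 75th percentile (590.3 to 1074 signal units) and put on the log2 scale. Control and outlier spots were left out and spots of a probe averaged. Probes were named through RefSeq accessions of GRCm38.p6 (22940), else by a symbol found there (6658), else by the file's own name (11551). Tested were probes clearly above background throughout at least 1 group, with the probe of highest mean level standing for its gene. Groups, from the labelled cell types, were compared with limma 3.58.1 in R 4.3.3 (lmFit, eBayes, two-sided, Benjamini-Hochberg) in 1 fit of 5 arrays with 2 residual degrees of freedom, the lone NPC array being assumed to vary like the pairs. Genes had a median SD of 0.105 between the iHPC arrays and 0.374 between the HPC arrays. An exact permutation test of 2 arrays against 2 cannot go below p = 0.333.

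The fit was tested on simulated data for iHPC against NPC (19303 genes, 50 changed at each size). It called 0% of changes of 4-fold, 38% at 16-fold, 50% at 64-fold and 68% at 256-fold, and made 0 false calls. In the simulation each gene had the same spread on all arrays and few genes were changed. The real iHPC and HPC pairs differed in spread and many more genes were called. These rates therefore do not carry over to the real comparisons. The members and gene lists were chosen with earlier results of these data known. Of each list up to 4 called genes with the largest difference are named. One gene with a pattern like that of a member is not reported here. Arrays of embryonic stem cells and of another neural line were not used here. Alternatives were other normalizations, background correction, filters, gene summaries, a scan-day block, fits of the compared groups alone and left-out arrays.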

Additional observations from a re-analysis of the deposited data

How the results depend on the processing

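Which member genes were called depended on the arrays that set the spread and on the filter. With arrays left out in turn, 0 to 5 of the 10 genes were called in iHPC against NPC, 0 to 7 in iHPC against HPC and 0 to 8 in HPC against NPC, and 0 to 6752, 0 to 6988 and 0 to 9760 of all genes; the counts of 0 came with either iHPC array left out, when 3 of the 10 genes in each comparison had an unadjusted limma p under 0.05 and the HPC pair alone set the spread. With scan day as a block, or only the groups compared, iHPC against NPC gave 5 of the 10 and 6752 of all genes, and HPC against NPC, on its own groups, 0 of both (unadjusted, 3 and 3889). For iHPC against NPC these settings and either HPC array left out are the same fit, in which the iHPC pair alone sets the spread. That fit added Prom1, Gpc3 and Alcam to Epcam and Cd24a. The block adjusted nothing between iHPC and NPC, which shared a scan day, since each HPC array was alone on its day. Without the filter on dim probes, 0, 1 and 2 of the 10 were called and 305, 460 and 1643 of all genes in the 3 comparisons in that order, and with only probes bright on all arrays 492, 617 and 2345. Background correction by normexp gave 1431, 2049 and 4740 of all genes and added 1 of the 10, Igf2bp1 in HPC against NPC (adjusted p = 0.0486). Centring on the median moved the median difference by -0.248 in iHPC against HPC and 0.313 in HPC against NPC, and changed the split from 683 higher and 363 lower to 676 and 621, and from 1290 and 1734 to 1875 and 1478; calls of the 10 genes kept their counts of 2, 3 and 3. Of 367 values of single genes 15 changed sign, none of them called in the fit of all arrays. Hmga2 gave 0.031, -0.11 and 0.15 under median centring, -0.055 against HPC by the mean of its probes, and 0.054, -0.088 and 0.14 on 1 further probe and -0.21 against HPC on the other. With arrays left out it ran from -0.19 to 0.13 in iHPC against NPC, from -0.77 to 1.03 in iHPC against HPC and from -1.07 to 0.73 in HPC against NPC. Igf2bp2 gave -0.013 in iHPC against NPC under quantile normalization, Igf2bp3 0.0069 in HPC against NPC under median centring, and Igf2bp1 -0.14 in iHPC against NPC on another probe. The cause was not tested. The series matrix gave no other values. No paired analysis was possible because the labels give the arrays no replicate numbers (those used here only name the arrays, in accession order) and NPC has 1 array.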

Other observations

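Genes related to Gpc3 and to osteopontin were tested as further lists. Of 8 other glypicans and syndecans, the cell surface heparan sulphate proteoglycans, none was called in iHPC against NPC by limma (1 at an unadjusted p under 0.05), the median difference being -1.28. Of all 19303 genes 4713 had an unadjusted p under 0.05 there, and their median difference was 0.026. Gpc6 was called at least 7.05-fold lower in iHPC than in HPC (limma adjusted p = 0.0323) and higher in HPC than in NPC by at least 7.89-fold (0.0450). In iHPC against HPC this direction is opposite to that of Gpc3, which was not called in HPC against NPC. Gpc6 was not well above background on any iHPC or NPC array, so these groups cannot be ordered for it. Sdc2, a syndecan, was lower in HPC than in NPC (-2.56, adjusted p = 0.0486). Over all genes 5.64% were called in iHPC against NPC, 5.42% in iHPC against HPC and 15.7% in HPC against NPC.

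Of 10 tested osteopontin receptors and related bone matrix glycoproteins, 4 were called lower in HPC than in NPC, where 8.98% of all genes were called lower: the integrin genes Itgb3 (-3.62, limma adjusted p = 0.0316), Itgb5 (-2.62, 0.0267) and Itga9 (at least 7.21-fold lower, 0.0289), and Dmp1, which encodes a matrix protein of bone and tooth (at least 145.1-fold lower, 0.0223). Dmp1 was also called at least 79.0-fold lower in iHPC than in NPC (0.0394), where Spp1 was not called. Its level was 0.87 in NPC and it was not well above background on any iHPC or HPC array. In iHPC against HPC none of the 10 was called by limma and 3 had an unadjusted p under 0.05. Such a p was found for 5324 of all 19303 genes, and 5.42% of all genes were called there. The medians of the 10 were -0.92 in iHPC against NPC, 0.65 in iHPC against HPC and -1.25 in HPC against NPC. Those of all genes were 0.026, 0.052 and -0.026. Of 6 paralogues and partners of the other surface genes (Bcam, Mcam, Cd6, L1cam, Siglecg and Selp) none was called in any of the 3 comparisons, and 0, 2 and 1 had an unadjusted p under 0.05 in iHPC against NPC, iHPC against HPC and HPC against NPC. The numbers over all 19303 genes were 4713, 5324 and 7028, and 5.64%, 5.42% and 15.7% of all genes were called.

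The remaining markers of other cell types gave no call for the 2 tested endothelial genes, of which 1 in iHPC against NPC and 1 in iHPC against HPC had an unadjusted p under 0.05. Of all 19303 genes 4713 and 5324 had such a p in these comparisons. The shares of all genes called were 5.64% in iHPC against NPC, 5.42% in iHPC against HPC and 15.7% in HPC against NPC. Of 3 tested erythroid genes Epor was called lower in HPC than in NPC (-1.98, limma adjusted p = 0.0357). Of 5 tested neural markers, 2 were called lower in iHPC than in NPC, Sox2 (-4.86, adjusted p = 0.0339) and Pax6 (-1.96, 0.0439), and the same 2 were called higher in iHPC than in HPC, Sox2 by at least 4.97-fold (0.0302) and Pax6 by 1.84 (0.0361). They were also called lower in HPC than in NPC. Over all genes 2.85% were called lower in iHPC against NPC, 3.54% higher in iHPC against HPC and 8.98% lower in HPC against NPC. The summed level of the 5 was not lower in iHPC than in NPC (2.72 and 2.92, and 2.23).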
